A study of Mus musculus with 10 samples.

Results

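Heme oxygenase 1 (Hmox1) and 9 genes of the NRF2 oxidative stress response were followed in hippocampal RNA of mice with and without photoablation of the meningeal lymphatic vessels. The 10 genes were chosen by symbol: Hmox1, Hmox2, Nqo1, Gclc, Gclm, Txnrd1, Srxn1, Slc7a11, Nfe2l2 and Keap1. All 10 were among the 27343 genes of the count table, and all 10 passed the filter on low counts that left 15938 genes for testing. Both groups were wild-type male C57BL/6J mice, 2 months old, with 5 libraries each. One group received Visudyne (verteporfin, a photosensitizer) into the cisterna magna and the other vehicle, and red light of 689 nm was then shone on the skull of both. The procedure was carried out again 2 weeks later. Following a further 2 weeks the mice went through the Morris water maze, and the whole hippocampus was taken 3 days after that. Numbers 1 to 5 name the Visudyne libraries and 6 to 10 the vehicle libraries.

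NRF2, the product of Nfe2l2, is a transcription factor that is normally short-lived, because KEAP1 hands it to a CUL3 ubiquitin ligase for destruction. Oxidants and reactive electrophiles modify KEAP1, NRF2 then accumulates, pairs with a small MAF protein and binds antioxidant response elements near genes of glutathione synthesis, thioredoxin recycling, quinone reduction and heme breakdown. In the brain this program is known mainly from astrocytes, while Hmox1 is low at rest and is induced in microglia, macrophages and astrocytes by heme, hemorrhage and oxidative injury. The comparison asks how transcripts of this program stood in the hippocampus weeks after the meningeal lymphatic vessels had been ablated.

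The libraries held 24752362 to 41073906 counts. The mitochondrial ribosomal RNA gene mt-Rnr2 alone took 33.6% to 39.7% of them in Visudyne and 32.2% to 35.7% in vehicle. Levels are given as CPM, counts relative to a library size corrected by the TMM method, which aligns the bulk of genes between libraries. Libraries differed in how strongly GC-rich transcripts were represented. This GC slope, the change in log2 CPM per 10 percentage points of transcript GC content against the mean of the 10 libraries, ran from -0.51 in Visudyne 1 to 0.011 in Visudyne 5, and from -0.017 in vehicle 10 to 0.39 in vehicle 9. Visudyne 5 therefore overlapped the vehicle range, and it also stood apart in microglial transcripts, as given below. All 12 marker genes of hippocampal neurons that were looked at passed the filter. Because the tissue was bulk hippocampus, fewer cells of a type and less RNA per cell cannot be told apart. The kit keeps strand, but whether the counting used it is not given in the sources used here. Hmox2 overlaps Cdip1 on the opposite strand, Gclm overlaps the pseudogene Gm6061 on its own strand, and Keap1 overlaps the antisense gene Gm16754, so those counts may hold reads of a neighbor.

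Of the 10 genes, Hmox2 and Srxn1 were lower and Gclm was higher in Visudyne, at 0.794, 0.826 and 1.25 times the vehicle level. The other 7, Hmox1 among them, were not called. A call is a Benjamini-Hochberg adjusted p under 0.05 over all 15938 genes by edgeR's quasi-likelihood test. The count of 3 of 10 stood against 20.5% called among all tested genes, 8.98% being called higher and 11.5% lower. The Visudyne and vehicle values did not overlap for the same 3 members, against 12.5% of all tested genes, 5.25% with Visudyne above and 7.22% with Visudyne below. The count of 3 members dropped to 1 without Visudyne 1 or Visudyne 4, and to 0 without Visudyne 3, vehicle 6 or vehicle 9, where edgeR called 27, 10 and 309 of all genes. The median log2 fold change was -0.10 over the 10 genes and 0.01 over all tested genes. No common direction was seen among them, as the plot of CPM by library shows.

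**Figure D1:**
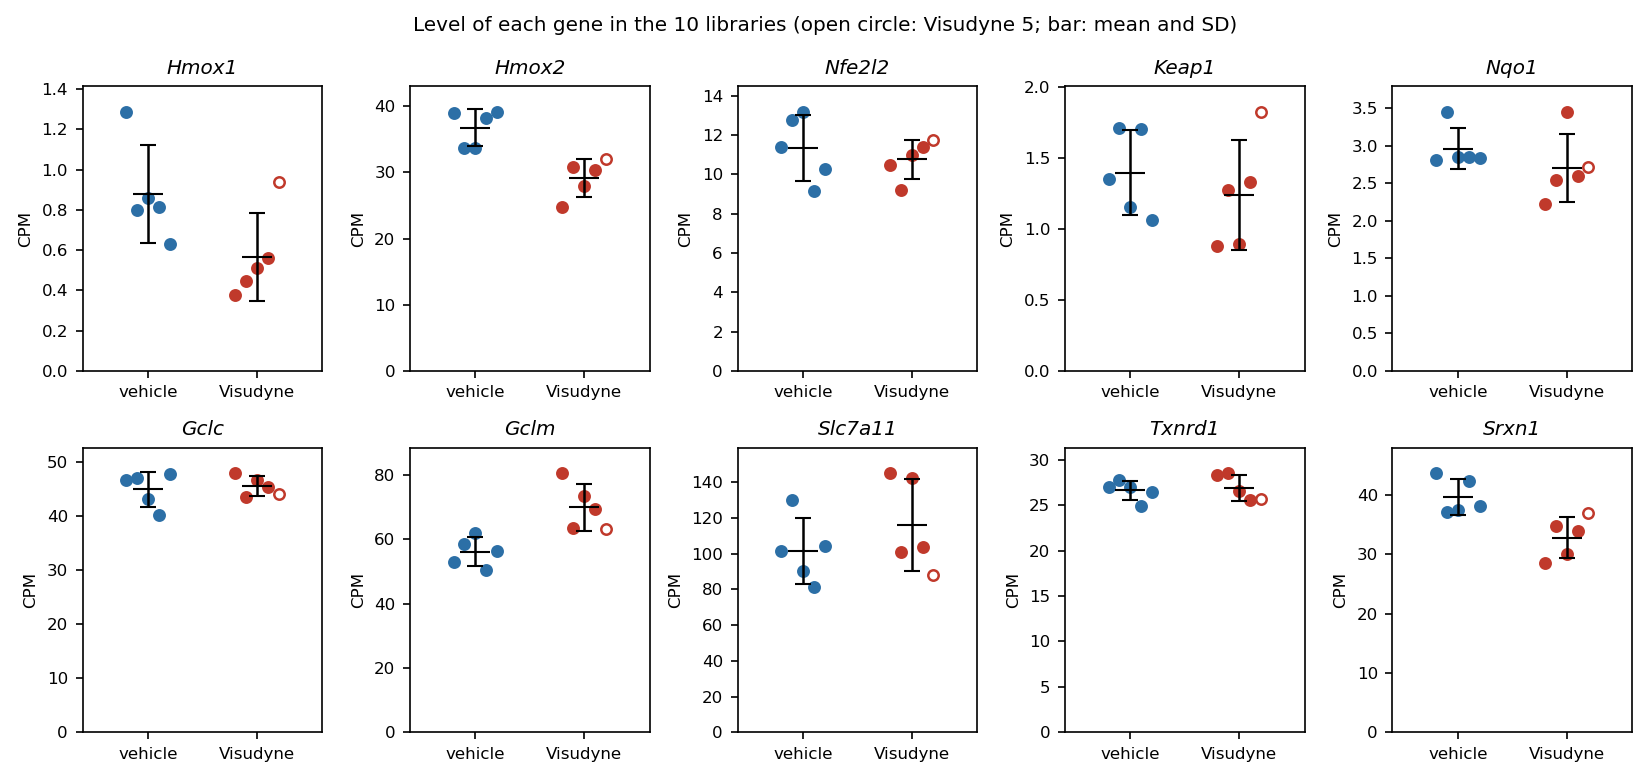
CPM of the 10 genes in each library (y axis from 0, 1 point per library, 5 per group, black bar the mean and its SD, open circle Visudyne 5). Hmox2 and Srxn1 lie lower and Gclm higher in all 5 Visudyne libraries than in any vehicle library, and the Hmox1 values of Visudyne 1 to 4 lie under the lowest vehicle value of 0.63 CPM.

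Heme oxygenases split heme into biliverdin, iron and carbon monoxide. Hmox1 (ENSMUSG00000005413, GRCm38 chromosome 8, 75093621 to 75100589, plus strand) encodes the inducible enzyme. Its counts were 12, 14, 16, 19 and 36 in Visudyne 1 to 5 and 56, 28, 38, 32 and 16 in vehicle 6 to 10. As CPM these were 0.377, 0.446, 0.511, 0.562 and 0.939 in Visudyne and 1.29, 0.798, 0.861, 0.814 and 0.63 in vehicle. Visudyne 1 to 4 were below each vehicle library, while Visudyne 5 was above 4 of the 5. The vehicle mean was 0.878 ± 0.245 CPM and the Visudyne mean 0.567 ± 0.219 CPM (SD, n = 5 each). The log2 fold change was -0.63 (SE 0.28), and with all 10 libraries Hmox1 was not called (adjusted p = 0.11 by edgeR). Without Visudyne 5 it was called, at a log2 fold change of -0.91 (SE 0.26; edgeR adjusted p = 0.023), where 31.5% of all tested genes were called and 17.9% were called lower. Then 4 of the 10 members were called, Hmox1, Hmox2 and Srxn1 lower and Gclm higher. The 4 remaining Visudyne values, at 0.474 ± 0.0802 CPM, did not overlap the vehicle values. Among all tested genes 27.5% were separated in this way, with 14.8% having Visudyne below vehicle.

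The depth limits what can be said of Hmox1. The 12 counts of Visudyne 1 carry an exact 95% Poisson interval of 6.2 to 21 counts, and the 56 counts of vehicle 6 one of 42.3 to 72.7. Those intervals cover counting error only. Counting alone would give a coefficient of variation of 19.4% at the mean count of Hmox1, and the coefficients found between libraries were 38.7% in Visudyne and 27.9% in vehicle. Hmox1 transcripts contain 53.3% GC. When each library's GC trend was removed, the log2 fold change of Hmox1 was -0.42 (adjusted p = 0.31 by edgeR), and it was 0.089 (SE 0.36) once the GC slope entered as a covariate. With the trend removed and Visudyne 5 left out it was -0.63 (adjusted p = 0.10 by edgeR).

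Microglial markers also stood high in Visudyne 5. The summed level of 12 microglial markers was 319.1 CPM there, 241.5 to 267.3 CPM in the other Visudyne libraries and 217.9 to 248.5 CPM in vehicle. All 12 were tested and 0 were at 0 in any library. The mean of these markers in log2 CPM, centred on the 10 libraries, was 0.48 in Visudyne 5, -0.36 to -0.11 in Visudyne 1 to 4 and 0.0044 to 0.17 in vehicle. Tmem119, a marker of resident microglia, fell from 2.27 to 1.55 CPM. For macrophages of the brain borders and monocytes, 7 of 10 markers were tested and their summed level was 10.2 to 17.2 CPM in Visudyne and 11.1 to 16 CPM in vehicle, while Pf4 and Cbr2 were under the filter. Lyve1, a marker of border macrophages and lymphatic endothelium, fell from 0.741 to 0.426 CPM. Of 8 red blood cell genes 4 were tested and 0 called by edgeR. Their sum, 24.1 to 28 CPM in Visudyne and 23.9 to 30.5 CPM in vehicle, was mostly Bpgm (19.9 to 23.8 CPM over the 10 libraries). The hemoglobin gene Hbb-bs, named after its values were seen, was uneven, at 0.276 CPM in vehicle 10, 0.713 in vehicle 6, 2.62 to 4.82 in the other vehicle libraries and 1.98 to 4.11 in Visudyne. Among 10 astrocyte markers, all tested, 1 was called higher and 1 lower. Their summed level was 4771 CPM in Visudyne 5, 5529 to 6217 CPM in the other Visudyne libraries and 4665 to 5356 CPM in vehicle. Slc1a2, named after its values were seen, made up most of that sum, at 3618 CPM in Visudyne 5. The mean of the 10 markers in centred log2 CPM was 0.17 in Visudyne 5. It was -0.50 to 0.11 in Visudyne 1 to 4 and -0.053 to 0.29 in vehicle. Fgfr3, also named afterwards, was at 0.032 and 0.096 CPM in Visudyne 2 and 3, which lowers that mean there. What part these cell types have in the Hmox1 values was not tested.

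Hmox2 (ENSMUSG00000004070, chromosome 16, 4726361 to 4766742, plus strand) encodes the constitutive enzyme, the main one in neurons. Its level was 24.8, 30.8, 28, 30.3 and 32 CPM in Visudyne 1 to 5 and 39, 33.7, 33.7, 38.3 and 39.1 CPM in vehicle 6 to 10. Each Visudyne library was below each vehicle library. The mean fell from 36.8 ± 2.82 to 29.2 ± 2.85 CPM (SD, n = 5 each), with a log2 fold change of -0.33 (SE 0.078; edgeR adjusted p = 0.026). Hmox2 kept its call when the GC trend was removed, at -0.27 (SE 0.066; edgeR adjusted p = 0.045), a setting in which 4.15% of all tested genes were called and 2.16% were called lower. It was the one member called there. Its call was lost when Visudyne 3, vehicle 6 or vehicle 9 was left out (edgeR adjusted p = 0.067, 0.074 and 0.057), and it was at -0.15 once the GC slope entered as a covariate (SE 0.095; edgeR adjusted p = 0.82).

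Within the pathway's control, Nfe2l2 and Keap1 were not called. Nfe2l2 (ENSMUSG00000015839, chromosome 2, 75675513 to 75704641, minus strand), the gene of NRF2, stood at 10.5, 9.23, 11, 11.4 and 11.8 CPM in Visudyne and at 11.4, 12.7, 13.2, 9.13 and 10.3 CPM in vehicle. The groups overlapped almost fully, with a log2 fold change of -0.07 (SE 0.11; edgeR adjusted p = 0.63). Keap1 (ENSMUSG00000003308, chromosome 9), the gene of its inhibitor, was counted 27 to 70 times per library. Its level was 0.879, 1.27, 0.894, 1.33 and 1.83 CPM in Visudyne and 1.36, 1.71, 1.16, 1.7 and 1.06 CPM in vehicle. Visudyne 5 held the highest value and Visudyne 1 and 3 the lowest, so the Visudyne range enclosed the vehicle range. The log2 fold change was -0.17 (SE 0.23; edgeR adjusted p = 0.61). Keap1 transcripts are the richest in GC of the 10, at 58%, and with the GC trend removed the sign turned, to 0.25 (SE 0.17; edgeR adjusted p = 0.38).

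Antioxidant response elements were looked for in RefSeq promoter windows (GRCm38.p6), which run from 250 bases before to 50 bases after a start site. The core was searched as TGACNNNGC and TGAGNNNGC on both strands, the second form being added after the members' windows had been read. Of the 10 genes 8 had a window, Hmox1 and Gclc being the others, and 5 of the 8 had at least 1 match, in 5 of their 12 windows. Among all 32851 windows, 27.8% held either form, 12.4% the first and 17.6% the second. The windows of Srxn1 and Gclm are printed in full because these genes were called in opposite directions, and the stretches around the matches of Nfe2l2, Slc7a11 and Txnrd1 because each of these windows held 1 match. Capitals mark the matches, and a match on the other strand appears as its reverse complement. They come from chr2:152105274-152105573 (plus strand) for Srxn1, chr3:122245307-122245606 (plus) for Gclm, chr2:75704865-75704913 (minus) for Nfe2l2, chr3:50443672-50443740 (minus) for Slc7a11 and chr10:82859084-82859152 (plus) for Txnrd1.
Srxn1: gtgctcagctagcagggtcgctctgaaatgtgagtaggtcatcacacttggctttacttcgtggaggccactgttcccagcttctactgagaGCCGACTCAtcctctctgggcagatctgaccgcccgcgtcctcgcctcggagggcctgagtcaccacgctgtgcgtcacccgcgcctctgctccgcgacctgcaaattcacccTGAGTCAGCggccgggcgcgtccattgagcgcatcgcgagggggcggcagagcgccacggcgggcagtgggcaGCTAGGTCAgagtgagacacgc
Gclm: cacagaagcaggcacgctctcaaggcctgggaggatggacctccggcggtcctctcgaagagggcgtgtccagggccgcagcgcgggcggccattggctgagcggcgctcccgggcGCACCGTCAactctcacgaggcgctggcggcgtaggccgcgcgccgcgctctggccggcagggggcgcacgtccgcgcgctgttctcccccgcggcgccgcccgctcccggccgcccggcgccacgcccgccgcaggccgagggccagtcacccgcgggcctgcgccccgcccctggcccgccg
Nfe2l2: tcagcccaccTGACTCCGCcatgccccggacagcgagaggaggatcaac
Slc7a11: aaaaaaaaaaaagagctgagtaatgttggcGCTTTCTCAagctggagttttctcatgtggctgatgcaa
Txnrd1: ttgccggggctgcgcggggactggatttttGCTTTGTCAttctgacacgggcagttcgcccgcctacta
Srxn1 had 3 matches, of which TGAGTCAGC on the gene's strand also overlaps the AP-1 motif TGANTCA, and the other two were TGAGTCGGC and TGACCTAGC on the other strand. Gclm had TGACGGTGC on the other strand. The windows of Hmox2, Nqo1 and Keap1 held 0 matches, which says only that these letters are not in these windows.

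Glutathione synthesis starts with cystine uptake by the exchanger xCT and the joining of glutamate to cysteine by glutamate-cysteine ligase. Slc7a11 (ENSMUSG00000027737, chromosome 3, 49892526 to 50443614, minus strand), the gene of xCT, stood at 144.8, 101, 142.5, 103.5 and 88.2 CPM in Visudyne and at 101.2, 129.9, 90.3, 81.5 and 104.4 CPM in vehicle. Visudyne 1 and 3 and vehicle 7 were high, and the groups overlapped. Its log2 fold change was 0.19 (SE 0.15; edgeR adjusted p = 0.37), and -0.05 with the GC trend removed. Gclc (ENSMUSG00000032350, chromosome 9, 77754535 to 77794485), which encodes the catalytic subunit of the ligase, varied little. It ran from 43.5 to 47.9 CPM in Visudyne, with a median of 45.5 CPM, and from 40.2 to 47.9 CPM in vehicle, with a median of 46.7 CPM. The log2 fold change was 0.018 (SE 0.06; edgeR adjusted p = 0.85), and it changed sign under several settings while staying small.

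Gclm (ENSMUSG00000028124, chromosome 3, 122245557 to 122270732, plus strand) encodes the modifier subunit of the same ligase, and its promoter window is printed above. Its level was 80.4, 63.4, 73.3, 69.4 and 63.2 CPM in Visudyne 1 to 5 and 53.1, 58.7, 62, 50.5 and 56.4 CPM in vehicle 6 to 10. All Visudyne libraries were above all vehicle libraries, Visudyne 5 and vehicle 8 being the closest. The mean rose from 56.1 ± 4.55 to 69.9 ± 7.24 CPM (SD, n = 5 each), with a log2 fold change of 0.32 (SE 0.08; edgeR adjusted p = 0.028). The transcript has 42.1% GC. With the GC trend removed its log2 fold change was 0.11 (SE 0.049; edgeR adjusted p = 0.18), and with total counts in place of TMM it was 0.11 and not called. It was not called without Visudyne 1, 3 or 4 or without vehicle 6 or 9 (adjusted p = 0.051 to 0.078 by edgeR).

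The thioredoxin branch reduces oxidized proteins. Txnrd1 (ENSMUSG00000020250, chromosome 10, 82833951 to 82897712), the gene of cytosolic thioredoxin reductase, deviated least from its own mean over the 10 libraries, by 0.051 in log2 CPM on average. It lay between 25.6 and 28.5 CPM in Visudyne and between 24.9 and 27.7 CPM in vehicle, with medians of 26.5 and 27 CPM. The log2 fold change was 0.016 (SE 0.056; edgeR adjusted p = 0.85). With total counts in place of TMM, where the median of all genes shifted to -0.19, Txnrd1 was called lower at -0.19, close to that shift.

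Srxn1 (ENSMUSG00000032802, chromosome 2, 152105516 to 152111376, plus strand) encodes sulfiredoxin, which restores peroxiredoxins that hydrogen peroxide has overoxidized. Its level was 28.4, 34.7, 30.1, 33.9 and 36.9 CPM in Visudyne and 43.6, 37.1, 37.4, 42.3 and 38 CPM in vehicle. Visudyne 5, at 36.9 CPM, and vehicle 7, at 37.1 CPM, nearly touched, but the groups did not overlap. The mean fell from 39.7 ± 3.03 to 32.8 ± 3.46 CPM (SD, n = 5 each), with a log2 fold change of -0.28 (SE 0.08; edgeR adjusted p = 0.036). Its transcripts contain 53.3% GC, as those of Hmox1 do. With the GC trend removed the log2 fold change was -0.05 (SE 0.046; edgeR adjusted p = 0.52). The call was made in 3 of the 10 fits that left out 1 library, those without Visudyne 5, vehicle 8 or vehicle 10, and was absent without any of the other 7, at log2 fold changes of -0.30 to -0.23.

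Nqo1 (ENSMUSG00000003849, chromosome 8, 107388225 to 107403206, minus strand) encodes a quinone reductase that is widely used as a readout of NRF2. It stood at 2.23, 2.55, 3.45, 2.6 and 2.71 CPM in Visudyne and at 2.8, 3.45, 2.85, 2.85 and 2.84 CPM in vehicle. Apart from Visudyne 3, the Visudyne values were under the lowest vehicle value. The log2 fold change was -0.13 (SE 0.14; edgeR adjusted p = 0.50), and -0.23 without Visudyne 3 (adjusted p = 0.23 by edgeR). Counting alone would give a coefficient of variation of 9.98% here, and the vehicle libraries had one of 9.31%.

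**Figure D2:**
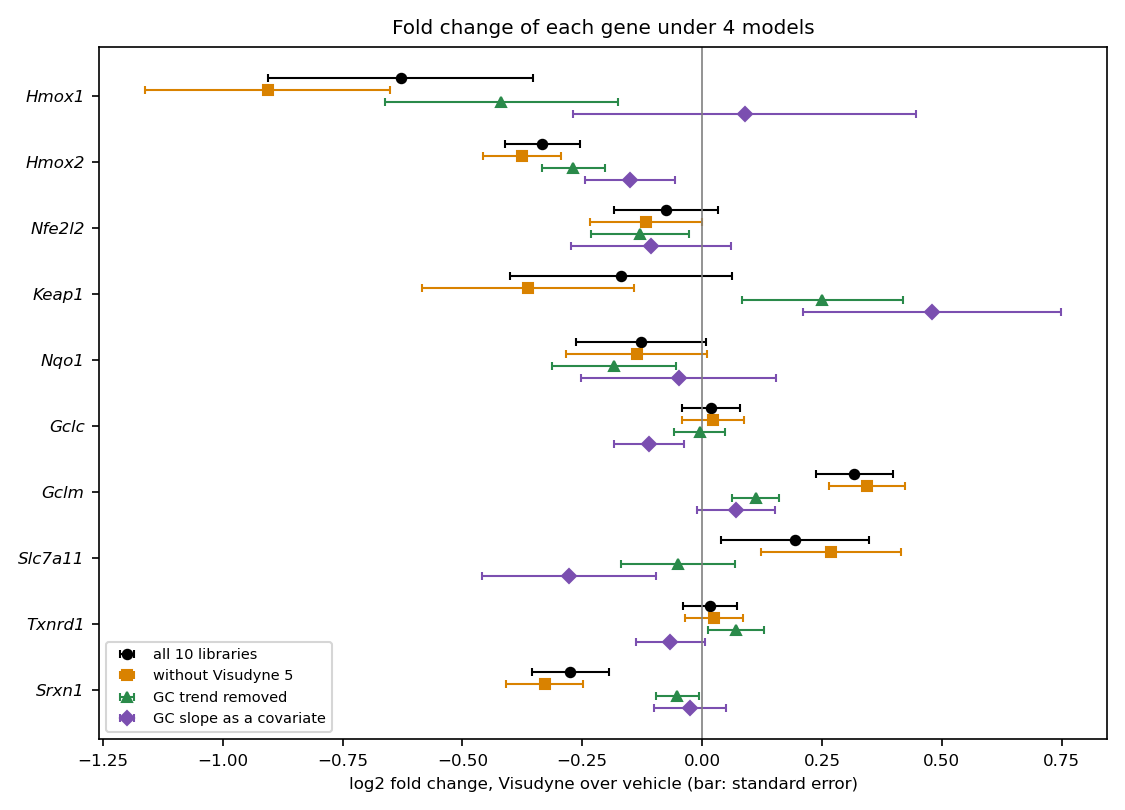
Log2 fold change (x axis, Visudyne over vehicle, bars 1 standard error) of the 10 genes (y axis) with all 10 libraries, without Visudyne 5, after removal of each library's GC trend, and with the GC slope in the model. Hmox1 moves from -0.63 to -0.91 without Visudyne 5 and to 0.089 with the covariate, while Nfe2l2 and Gclc stay near 0.

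Transcripts of 3 pairs of proteins that act together were compared as ratios within a library, which removes the library size. They were chosen after the values had been seen, so they are given as descriptions with no test, and levels were taken per kilobase of exon. The ratio of Gclm to Gclc, the subunits of glutamate-cysteine ligase, was 1.01, 0.872, 0.938, 0.914 and 0.859 in Visudyne and 0.68, 0.746, 0.861, 0.752 and 0.706 in vehicle. Only vehicle 8 reached into the Visudyne range. The mean ratio was 0.918 ± 0.0583 in Visudyne and 0.749 ± 0.069 in vehicle (n = 5 each), higher by 0.30 on the log2 scale, much as Gclm alone was. The difference was 0.32 without Visudyne 5 and 0.12 with the GC trend removed. Hmox2 over Hmox1 was 43.9 ± 10.8 in Visudyne and 34.9 ± 9.27 in vehicle (n = 5 each), with 26.9 in Visudyne 5 and 42.6 to 54.6 in the other Visudyne libraries. Nfe2l2 over Keap1 was 11.5 ± 3.31 and 10.5 ± 2.82 (n = 5 each). Its log2 difference of 0.13 became -0.38 with the GC trend removed.

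**Figure D3:**
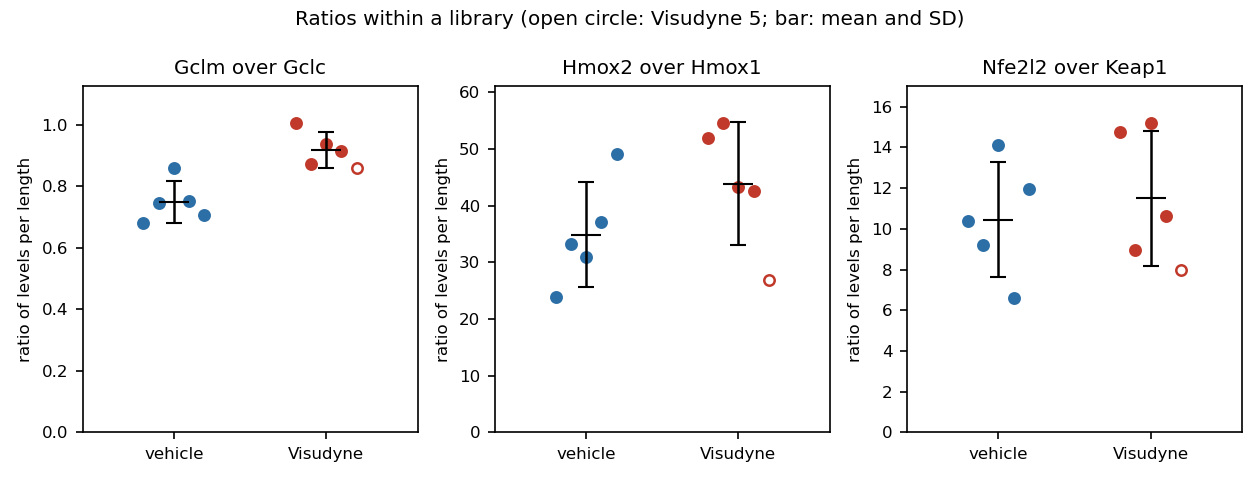
Ratios of levels per length within each library (y axis from 0, 1 point per library, 5 per group, black bar the mean and its SD, open circle Visudyne 5). The Gclm over Gclc ratio averaged 0.918 in Visudyne and 0.749 in vehicle, while the other ratios overlap widely.

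To set the genes side by side, counts per kilobase of exon were rescaled to the same sum in each library, as TPM are, a scale used here only to order genes. Over the 10 libraries, Hmox2 had the highest mean level per length of 34.4 (range 21.1 to 46.2), followed by Srxn1 at 29.7 (19.1 to 40.6), Gclc at 27.4 (22.3 to 32.6), Gclm at 22.6 (19.5 to 25.3) and Slc7a11 at 17.5 (14 to 21.9). The ranges of neighbors among these 5 overlapped, and Gclc (25.1) was above Srxn1 (24.4) in Visudyne but below it (29.6 and 35.1) in vehicle. Txnrd1 at 8.6 (7.17 to 10), Nfe2l2 at 6.68 (4.7 to 8.9) and Nqo1 at 4.17 (2.72 to 5.22) came next, each overlapping its neighbor, and Txnrd1 lay apart from Slc7a11. Hmox1 at 0.977 (0.407 to 1.93) and Keap1 at 0.653 (0.355 to 0.947) lay apart from Nqo1 and overlapped each other. Hmox2 was thus at the 89.1th and Hmox1 at the 22.6th percentile of level per length among the tested genes. Averaged over libraries, Hmox2 stood at 39.4 times the level of Hmox1. With the length of the longest transcript the order was Hmox2, Gclc, Srxn1, Slc7a11, Gclm, Txnrd1, Nfe2l2, Nqo1, Hmox1 and Keap1.

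The profiles of the 10 genes over the libraries fell apart rather than moving as one. By the mean absolute difference of centred log2 CPM over the 10 libraries, Hmox2 and Srxn1 were the closest pair at 0.044, followed by Gclc and Txnrd1 at 0.059. Hmox2 and Srxn1 deviated from their own means by 0.168 and 0.146 on average, Gclc and Txnrd1 by only 0.066 and 0.051. Genes that vary little lie close by this measure, so Gclc and Txnrd1 need not share a pattern. The member nearest to Hmox1 was Srxn1 at 0.28, and the farthest was Slc7a11 at 0.57. Nfe2l2 was nearest to Gclc, at 0.134, about as far as it deviated from its own mean (0.135). Among 11722 genes with a symbol and a mean level no lower than 1 CPM, those nearest to Hmox1 by the same measure were Prkcsh (0.13), Dpm2 (0.14), Hexa (0.14), Cdhr3 (0.15) and Slc6a9 (0.15). Each of the 5 was higher in Visudyne 5 than in the other Visudyne libraries, which follows from picking them by nearness to Hmox1. Of the 5, 4 have 53.5% to 57.4% GC, Cdhr3 having 49.2%. These distances are descriptions, and the libraries' GC slopes are common to all the genes.

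**Figure D4:**
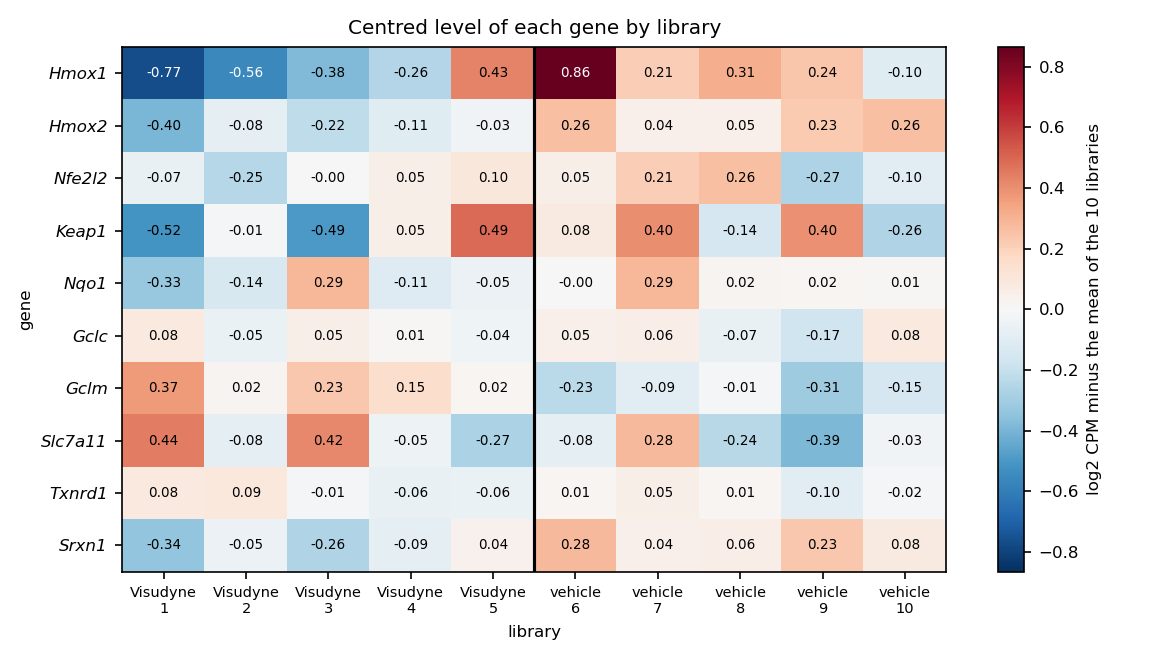
Log2 CPM of the 10 genes (rows) in the 10 libraries (columns), each minus its mean over the libraries, with the value in each cell and red for higher. Hmox1 runs from -0.77 in Visudyne 1 to 0.86 in vehicle 6. Hmox2 and Srxn1 resemble each other, at -0.03 and 0.04 in Visudyne 5, where Hmox1 is at 0.43. Slc7a11 is high in Visudyne 1 and 3 and in vehicle 7.

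Other regulators of NRF2 changed in both directions. Of 17 listed genes 16 were tested, and 3 were called higher, 3 lower and 10 not, with a median log2 fold change of -0.08. Among all tested genes 8.98% were called higher and 11.5% lower. Cul3, the scaffold of the ligase that KEAP1 uses, rose from 238 to 299 CPM, a log2 fold change of 0.33 (SE 0.088; edgeR adjusted p = 0.031), with all Visudyne libraries above all vehicle libraries. Gsk3b, a kinase that marks NRF2 for destruction by another route, rose 1.21-fold, and Nfe2l3, a relative of NRF2, rose 1.28-fold. Dpp3 and Pgam5, whose products bind KEAP1, fell to 0.553 and 0.617 of the vehicle level, and Park7, the gene of the oxidation sensor DJ-1, fell to 0.67. Bach1, a repressor that competes with NRF2 at the Hmox1 gene, averaged 11.2 ± 0.736 CPM in vehicle and 12.4 ± 1.52 CPM in Visudyne (n = 5 each) and was not called (adjusted p = 0.27 by edgeR). Sqstm1, the gene of the KEAP1-binding autophagy receptor p62, had a log2 fold change of -0.19 (adjusted p = 0.059 by edgeR). With the GC trend removed 1 of the 16 was called, Btrc (named after its value was seen), and Cul3 was at 0.05. Leaving out 1 library brought the 6 calls to 0 (Visudyne 1, 3 or 4, vehicle 6 or 9), 2 (vehicle 7), 3 (vehicle 8) or 10 (Visudyne 5).

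Other known NRF2 targets were lower more often than higher. Of 48 listed genes 41 were tested, and 2 were called higher, 11 lower and 28 not, with a median log2 fold change of -0.32 against 0.01 over all tested genes. The share called, 13 of 41, stood against 20.5% of all tested genes, 8.98% being called higher and 11.5% lower. After removal of the GC trend the list's median was -0.22, against 0.011 over all tested genes. It was -0.008, against 0.018, once the model included the GC slope. Gstm5, a glutathione S-transferase gene, fell from 82.5 ± 4.8 to 63.2 ± 5.39 CPM (n = 5 each), with a log2 fold change of -0.38 (SE 0.069; edgeR adjusted p = 0.020), and all Visudyne libraries were below all vehicle libraries. Among the genes that make NADPH, G6pdx and Taldo1 of the pentose phosphate pathway fell to 0.7 and 0.671 of vehicle, while Me1 (malic enzyme) and Idh1 (cytosolic isocitrate dehydrogenase) both rose 1.23-fold. Fth1, the ferritin heavy chain gene, fell from 266 to 212 CPM. Gsr (glutathione reductase), Txn1 (thioredoxin) and Prdx1 (peroxiredoxin) were not called, at log2 fold changes of 0.11, 0.17 and 0.07. Gstm5 and G6pdx remained called with the GC trend removed, at -0.32 and -0.33, and were the 2 of the 41 called there. Leaving out 1 library brought the 13 calls to 0 (Visudyne 3 or vehicle 6), 1 (vehicle 9), 3 (Visudyne 1), 4 (Visudyne 4), 6 (Visudyne 2 or vehicle 7), 8 (vehicle 8), 15 (vehicle 10) or 19 (Visudyne 5). Genes with near-identical relatives or processed copies, such as the glutathione S-transferases and ferritins, are uncertain where reads could be split.

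Genes of heme and iron handling, a list that shares 4 genes with the targets and 1 with the regulators, had calls in both directions. Of 26 listed, 23 were tested, and 1 was called higher, 3 lower and 19 not, with a median of -0.20, and the 4 of 23 called stood against 20.5% of all tested genes. Slc48a1, which encodes a heme transporter of endosomes, fell from 25.5 ± 3.5 to 17.4 ± 2.67 CPM (n = 5 each), with a log2 fold change of -0.55 (SE 0.12; edgeR adjusted p = 0.023), without overlap of the groups. Ftl1, the ferritin light chain gene, was at 0.459 of vehicle. Ireb2, the gene of an iron-sensing protein that represses ferritin translation, rose from 81.7 to 114 CPM, also without overlap. Blvra and Blvrb encode the biliverdin reductases that act after heme oxygenase. Neither was called: vehicle and Visudyne averaged 7.18 ± 0.528 and 6.38 ± 0.403 CPM for Blvra, and 0.554 ± 0.193 and 0.395 ± 0.17 CPM for Blvrb (n = 5 each). With the GC trend removed 0 of the 23 were called by edgeR, and Slc48a1 was at -0.20 and Ireb2 at 0.20. Leaving out 1 library brought the 4 calls to 0 (Visudyne 3, vehicle 6 or vehicle 9), 2 (Visudyne 1 or 4), 7 (vehicle 10) or 9 (Visudyne 5).

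**Figure D5:**
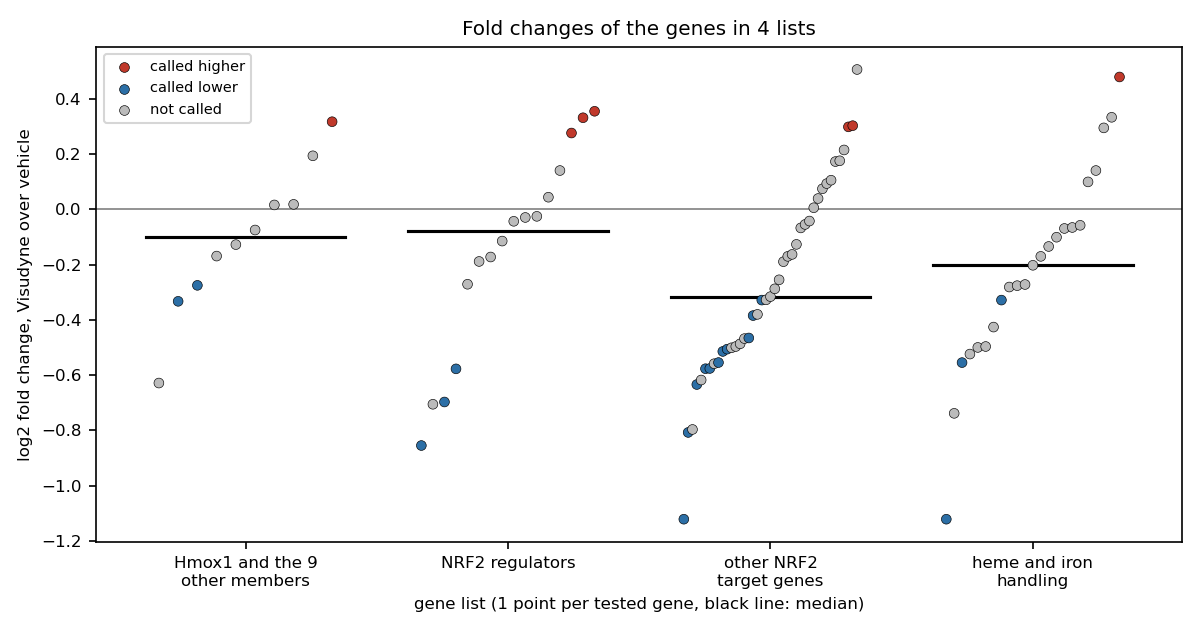
Log2 fold change (y axis, Visudyne over vehicle) of each tested gene in the 10 members, the 16 NRF2 regulators, the 41 other NRF2 targets and the 23 heme and iron genes, sorted within a list, with the list's median as a black line. Red and blue points were called higher and lower, and the medians lie at -0.10, -0.08, -0.32 and -0.20.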

How the data were processed

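Total RNA of 10 hippocampal samples was sequenced after a stranded library preparation, per the labels. The authors deposited 1 table of gene counts. Per the submitters' processing notes Salmon and FastQC were run on build mm10, and the whole numbers in the deposited table are treated here as estimated counts that the authors rounded. The annotation is not stated in these sources.

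Symbols, positions and exon lengths came from GENCODE M21 (GRCm38, 27053 of 27343 identifiers matched), and GC content from the longest transcript (15829 of 15938 tested genes). Groups were compared with edgeR 4.0.16 in R 4.3.3 (filterByExpr, TMM, quasi-likelihood, ~ group). The standard error is the log2 fold change divided by the square root of F. The 10 genes and all gene lists were chosen with earlier results of these data known. Named are the members, up to 4 higher and 4 lower called genes per pathway list by smallest p, a fixed panel of 12, up to 2 per marker list, and nearest profiles. One gene that this rule names is not reported here. The 23 planned settings include DESeq2 1.42.0, limma-voom (limma 3.58.1), sva 3.50.0, other size factors and filters, loess removal of GC or length trends (span 0.3) and each library left out. One setting was added after seeing the data. The labels do not say that each library came from a separate mouse, so p-values measure the spread between these libraries, which may be technical. Libraries of 1 group differed beyond sampling noise (chi-square per degree of freedom at least 13.6).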

Additional observations from a re-analysis of the deposited data

Results flagged for a closer look

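Within a group of 5, a library was picked out when its gap to the nearest other value exceeded 0.71 of the group's range, which chance does in about 1 of 20 groups. Among 64 groups looked at (32 genes, 2 groups each), 3 stood out, all in vehicle. Nqo1 was at 3.45 CPM in vehicle 7 against 2.8 to 2.85 CPM in the other 4 libraries. Pgam5 was at 22.1 CPM in vehicle 9 against 12.6 to 15.1 CPM, and Idh1 was at 32.9 CPM in vehicle 9 against 39.2 to 41.7 CPM.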

How the results depend on the processing

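No paired analysis was possible because the replicate numbers run from 1 to 5 in Visudyne and from 6 to 10 in vehicle and share none. With 1 surrogate variable, the GC trend removed, and the GC slope as a covariate, edgeR called 1, 662 and 0 genes in place of 3261 (with the covariate 1050 genes had an unadjusted p under 0.05), 0, 1 and 0 of the 10 members in place of 3, 0, 2 and 0 of the other NRF2 targets in place of 13, 0, 1 and 0 regulators in place of 6, and 0, 0 and 0 heme and iron genes in place of 4. Without a filter on low counts 2075 genes were called. DESeq2 called 10 regulators and 7 heme and iron genes. With total counts 13 heme and iron genes were called, and 4.78% of all 4098 calls were higher against 43.9%. With the GC trend removed and Visudyne 5 left out 1843 genes and 1 member were called, with 11 targets, 7 regulators and 4 heme and iron genes. Leaving out each library gave 10 to 5047 genes, 0 to 4 members, 0 to 19 targets, 0 to 10 regulators and 0 to 9 heme and iron genes. For Hmox1 these fits gave log2 fold changes of -0.91 to -0.45, called only without Visudyne 5, and limma-voom with library weights also called it (-0.71, adjusted p = 0.043 by limma). Hmox1 could not be tested with at least 1 CPM required in 5 libraries.

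Some directions turned. With total counts Gclc was at -0.19, Txnrd1 -0.19, Slc7a11 -0.022, Bach1 -0.075, Gsr -0.10, Txn1 -0.033 and Prdx1 -0.13. With limma-voom library weights Gclc was at -0.021 and Txnrd1 at -0.012. With 1 surrogate variable Gclc was at -0.062, Txnrd1 -0.043, Slc7a11 -0.13, Keap1 0.25, Blvrb 0.21, Bach1 -0.0057 and Prdx1 -0.071. With the GC trend removed Gclc was at -0.0053, Slc7a11 -0.051, Keap1 0.25 (0.15 without Visudyne 5), Sqstm1 0.078 (0.10) and Prdx1 -0.12 (-0.12). With the GC slope as a covariate Hmox1 was at 0.089, Gclc -0.11, Txnrd1 -0.066, Slc7a11 -0.28, Keap1 0.48, Nfe2l3 -0.013, Pgam5 0.056, Park7 0.14, Ftl1 0.21, Blvrb 0.71, Bach1 -0.047, Sqstm1 0.010 and Prdx1 -0.14. With 1 library left out Gclc ranged from -0.029 to 0.035, Txnrd1 from -0.016 to 0.035 and Prdx1 from -0.0066 to 0.12. The cause was not tested. Hmox2, Gclm, Srxn1, Nqo1 and Nfe2l2 kept their direction in every setting. Depth limits Hmox1 and Keap1 most, at 12 to 70 counts per library.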

Other observations

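Nqo1 and Slc7a11 had their vehicle maximum in the same library, vehicle 7, at 3.45 and 129.9 CPM. In Visudyne 3, Nqo1 was at its group maximum of 3.45 CPM and Slc7a11 at 142.5 CPM, second to Visudyne 1. The summed level of 10 markers of meningeal fibroblasts and mural cells was also at its group maximum in those libraries, 167 CPM in vehicle 7 and 192.1 CPM in Visudyne 3. It was nearly as high in Visudyne 5, at 190.4 CPM, where Slc7a11 was at its group minimum of 88.2 CPM and Nqo1 at 2.71 CPM. Most of the sum in Visudyne 5 was Dcn (75.4 CPM) and Rgs5 (95.9 CPM, named after its values were seen). The mean of the 10 markers in centred log2 CPM was -0.23 in Visudyne 5. It was 0.069 in Visudyne 3 and 0.47 in vehicle 7, the maximum of each group. The summed level spanned 124.2 to 167 CPM in vehicle and 161.5 to 192.1 CPM in Visudyne. By gene, edgeR called 2 of the 10 higher, Rgs5 and Dcn, at log2 fold changes of 0.32 and 0.82. It called 4 lower, Slc6a13, Acta2, Vtn and Pdgfrb, at -1.47, -0.94, -0.84 and -0.48. Of these, Acta2, Vtn and Pdgfrb were named after their values were seen. The median log2 fold change of the 10 was -0.35. Among all tested genes 8.98% were called higher and 11.5% lower. The summed level of the 8 tested choroid plexus markers was 492.8 CPM in Visudyne 3 and 340.3 CPM in Visudyne 5 but 31 to 49.8 CPM in the other 8 libraries. What part such cells have in the Nqo1 and Slc7a11 values was not tested.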
